A study of Mus musculus with 14 samples.

Results

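The genes described here are 34 genes of glucose breakdown and of the response to low oxygen, followed through the TGFβ treatment of mouse lens epithelial cells. They were chosen by name, from a list of gene symbols drawn up with earlier results of these data known. Their level was read as TPM (transcripts per 1000000 transcripts, a measure scaled for gene length and library size) in 14 RNA sequencing libraries. Members that averaged 1 TPM or more across all 14 libraries were kept, which left 28 of the 34 members, among 12927 genes tested of 40853 listed. All 28 also averaged more than 1 TPM in each treatment, the lowest averages being 1.74 TPM with TGFβ (Pdk1) and 1.63 TPM in control (Ankrd37). By role, 16 of 16 members of glucose entry and glycolysis were kept, 2 of 4 of pyruvate and lactate handling, 9 of 12 regulators and effectors induced by hypoxia-inducible factor (HIF), and 1 of 2 HIF alpha subunits.

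The cells were αTN4-1, a line from the lens of mice that carry a viral T antigen, kept as 7 stable lines under neomycin selection. There were 3 lines labelled for an overexpressed form of the transcription factor CREB without S133A (WT-CREB, R314A-CREB and KCREB), 3 labelled for the matching forms that carry it (S133A-CREB, S133A/R314A-CREB and S133A-KCREB), and Vector, whose genotype label is WT. Each line gave 1 library after 24 h with 20 ng/mL TGFβ and 1 control library. CREB activates genes at cAMP response elements. S133A removes a serine whose phosphorylation by protein kinase A activates CREB. R314A, in the basic leucine zipper (bZIP) domain, is known to weaken binding of CRTC coactivators, and KCREB is known as a form that does not bind DNA and blocks its partners. Neither the promoter of the constructs nor whether a line came from 1 clone is stated in the labels. TGFβ was given in medium without serum, and the labels do not say whether control cells also went without it, so TGFβ and serum withdrawal cannot be told apart. No line and treatment had a repeat culture, so p-values measure the spread between lines.

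Glycolysis turns glucose into pyruvate in the cytosol, and pyruvate is either oxidised in mitochondria or reduced to lactate. The lens has no blood vessels and low oxygen, and its epithelium is known to draw much of its energy from glycolysis. HIF is a pair of an alpha subunit, which prolyl hydroxylases mark for destruction when oxygen is present, and the stable partner Arnt. It is known to raise most glycolytic genes together with genes of vessel growth, mitophagy and collagen modification, so that in hypoxia the role groups below usually rise as 1 programme.

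Creb1 was below Vector under both treatments in 4 of the lines labelled for an overexpressed form of CREB. It had 9.68 TPM with TGFβ and 11.6 TPM in control in the line labelled WT-CREB, with 4.43 to 6.01 TPM and 6.59 to 9.04 TPM in the lines labelled R314A-CREB, S133A-CREB and S133A/R314A-CREB. Vector had 23.1 and 20.8 TPM. The lines labelled KCREB (30.1 and 25.8 TPM) and S133A-KCREB (38.3 and 34.0 TPM) were above it. No label says from which species the construct came, so each line is called by its label alone. Between 12545 and 13081 genes per library reached 1 TPM, and the coverage that equals 1 FPKM, which follows depth, ran from 5.05 to 10.1. Mitochondrially encoded genes held 5.75% to 8.64% of TPM with TGFβ and 5.59% to 10.8% in control. Of 13 lens markers 9 averaged at least 1 TPM, Pax6 among them (54.4 to 187 TPM with TGFβ, 63.9 to 328 TPM in control), while Foxe3, Cdh1 and Gja1 were near 0 and Lim2 was listed at 0. The summed lens markers ran from 636 to 1149 TPM with TGFβ and from 776 to 2699 TPM in control. Of 8 macrophage markers 3 averaged at least 1 TPM (sum 13.9 to 42.2 TPM with TGFβ, 25.3 to 89.2 TPM in control), and Adgre1, Tyrobp, C1qa and C1qb were listed at 0. Of 5 muscle markers, Des and Tnnt2 did (sum 85.2 to 212 TPM and 12.4 to 113 TPM), with Myod1 and Myog at 0, and of 5 pigment cell markers, Mitf and Pmel (7.80 to 25.0 TPM and 5.02 to 12.0 TPM), with Dct at 0. Of 4 keratinocyte and cornea markers, Krt14 and Aldh3a1 did (112 to 953 TPM and 275 to 2281 TPM), and of 5 endothelial markers, Esam alone (1.77 to 4.89 TPM and 1.04 to 2.995 TPM for the list). The part of these markers in the results below was not tested, and in bulk RNA fewer cells of a type and less RNA per cell cannot be told apart.

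With TGFβ, members moved in both directions within most roles. Among the HIF-induced genes the collagen-modifying enzymes Plod2 and P4ha2, the growth factor Vegfa, the oxygen sensor Egln1 and the transcription factor Mxi1 rose, whereas the mitophagy receptor Bnip3 and the collagen prolyl hydroxylase P4ha1 fell. Among glycolytic genes the hexokinase Hk2 rose, whereas the glucose transporter Slc2a1, the hexokinase Hk1, the isomerase Gpi1, the phosphofructokinases Pfkm and Pfkp and the minor isoforms Aldoc and Eno2 fell. The abundant enzymes from Aldoa to Pkm were not called in either direction. In all, 8 of 28 members (28.6%) rose and 10 (35.7%) fell, by limma on log2(TPM + 1) with the line as a block and a Benjamini-Hochberg adjusted p under 0.05 over all genes tested. The background over all genes tested was 24.1% higher and 21.4% lower. Over all roles together the share that rose is thus near the background, and the share that fell is above it. By role, 1 of the 16 members of glucose entry and glycolysis rose (6.25%) and 7 fell (43.8%), with a median change of -0.11. Of the 9 HIF-induced genes, 5 rose (55.6%) and 2 fell (22.2%), with a median of 0.39. The role lists were drawn up with earlier results of these data known, and their shares carry no test. The median change of the 28 was -0.03 on the log2 scale, against 0.02 for all genes tested. One direction in all 7 lines was seen in 11 of 28 members (39.3%), against 34.4% of all genes tested, which is also close. In every one of the 28 members the TGFβ and control libraries overlapped in TPM when the line was ignored. The share of all genes tested that overlap in this way was not computed, so this is no trait of the members.

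**Figure D1:**
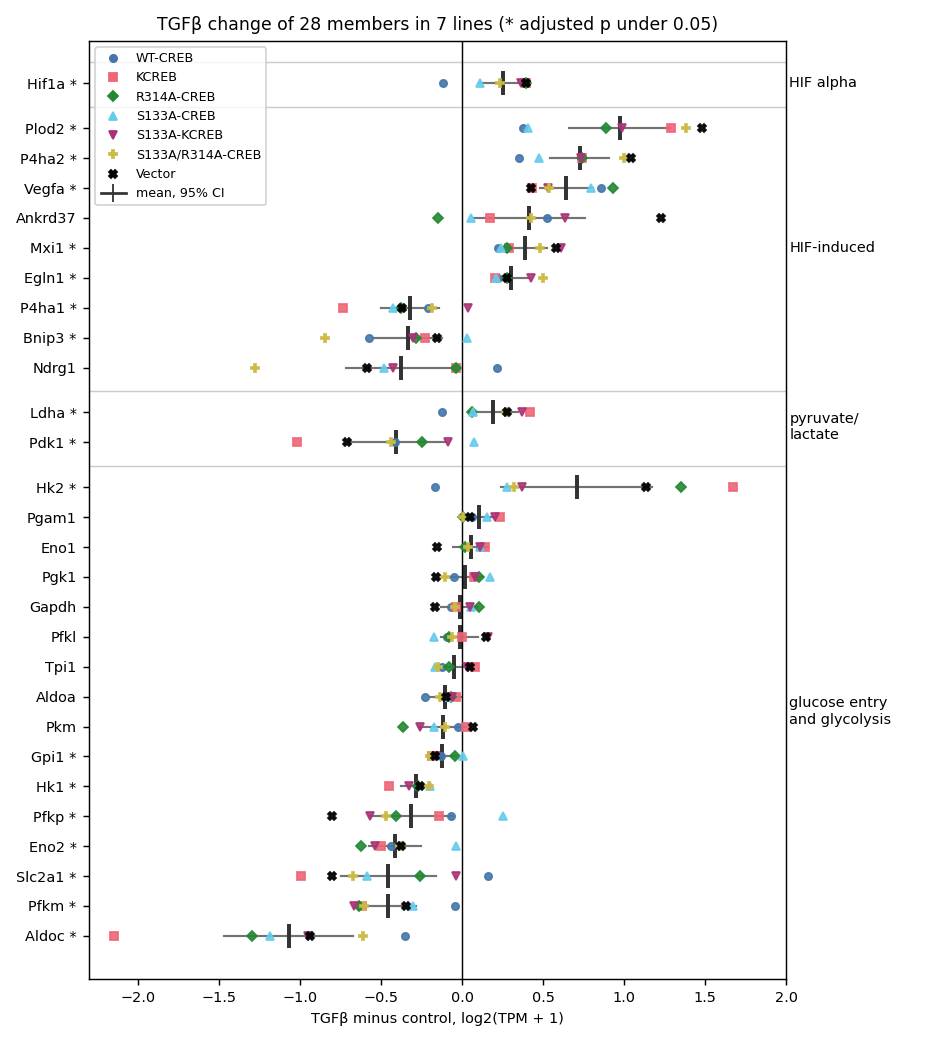
Change with TGFβ of each of the 28 members in each line, as log2(TPM + 1) in the TGFβ library minus the control library (x axis), with 1 symbol per line, the mean of the 7 lines as a vertical tick and its 95% confidence interval as a bar; an asterisk marks an adjusted p under 0.05. HIF-induced genes lie on both sides of 0, from Plod2 at 0.97 to Ndrg1 at -0.38, and 12 of the 16 genes of glucose entry and glycolysis lie below 0, with Hk2 at 0.71, Pgam1 at 0.10, Eno1 at 0.05 and Pgk1 at 0.02 above it.

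The mRNA of 1 glucose transporter was lower. Slc2a1 (Glut1, GRCm39 chr4:118965942-118994527, plus strand), the main glucose transporter of many epithelia, had a lowest, median and highest level of 91.9, 121 and 152 TPM with TGFβ, against 82.2, 160 and 269 TPM in control. It was lower in 6 lines and higher in the line labelled WT-CREB, where both libraries were low (91.9 and 82.2 TPM). The mean change was -0.46 (95% CI -0.75 to -0.16, limma adjusted p = 0.0183). Without the Vector line it was -0.40 and the call was lost (adjusted p = 0.0521). The transporters Slc2a3 (-0.13, limma adjusted p = 0.430) and Slc2a4 (-0.23, adjusted p = 0.0955) did not pass. The Slc2a1 level in the TGFβ libraries spread over a 1.66-fold range, and the control libraries over a 3.28-fold range.

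The hexokinases, which trap glucose as glucose 6-phosphate, moved in opposite directions. Hk1 (chr10:62104634-62215699, minus strand) had 81.0, 93.5 and 110 TPM with TGFβ at its lowest, median and highest, against 109.5, 117 and 127 TPM in control. It was lower in all 7 lines, and a single TGFβ library, that of the line labelled S133A-CREB at 110.4 TPM, lay above the lowest control library, that of Vector at 109.5 TPM. The change was -0.28 (95% CI -0.38 to -0.19, limma adjusted p = 0.000836). Hk2 (chr6:82702004-82751435, minus strand), the inducible isoform on the mitochondrial surface, had 17.8, 29.9 and 31.8 TPM with TGFβ, against 7.64, 19.2 and 24.7 TPM in control. Its largest rises were in the lines with the lowest control levels, with 26.6 TPM under TGFβ and 7.64 TPM in control in the line labelled KCREB, 30.3 and 11.3 TPM in the line labelled R314A-CREB, and 29.9 and 13.1 TPM in Vector. The line labelled WT-CREB went the other way, with 17.8 and 20.1 TPM. The mean change of Hk2 was 0.71 (95% CI 0.24 to 1.17, limma adjusted p = 0.0201), and the call was lost without Vector (0.64, adjusted p = 0.0557) or without the line labelled R314A-CREB (0.60, adjusted p = 0.0549).

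**Figure D2:**
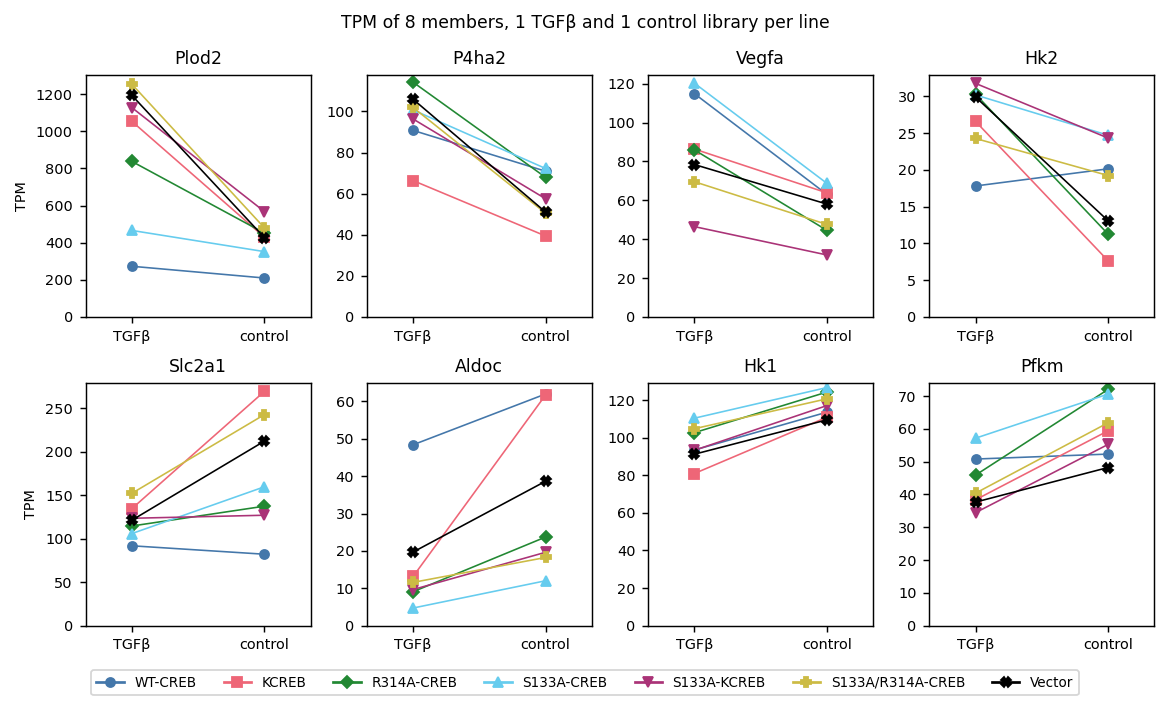
TPM (y axis, from 0) of 8 members in the TGFβ library and the control library of each of the 7 lines, joined by a line per cell line. Plod2, P4ha2 and Vegfa were higher with TGFβ in every line, Hk1, Pfkm and Aldoc were lower in every line, and Hk2 and Slc2a1 each have 1 line, labelled WT-CREB, that goes the other way.

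With 1 isoform higher and the other lower, the make-up of hexokinase mRNA differed. Hk2 was 16.0% to 25.4% (median 22.8%) of the summed TPM of Hk1 and Hk2 with TGFβ, and 6.45% to 17.2% (median 13.8%) in control. The share was higher in all 7 lines, by least in the line labelled WT-CREB (16.0% with TGFβ, 15.1% in control) and by most in the line labelled KCREB (24.7% and 6.45%). These shares were computed after the single values had been seen and carry no test.

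Phosphofructokinase, which commits sugar to glycolysis, is made from 3 genes. Pfkm (chr15:97990470-98030328, plus strand), the muscle-type subunit, had 34.5, 40.4 and 57.2 TPM with TGFβ, against 48.2, 59.4 and 72.0 TPM in control, and was lower in all 7 lines (-0.46, 95% CI -0.64 to -0.28, limma adjusted p = 0.00174). Its fall was small in the line labelled WT-CREB, with 50.8 TPM under TGFβ and 52.3 TPM in control. Pfkp, the platelet-type subunit, had 24.0, 32.4 and 49.7 TPM with TGFβ and 34.0, 40.2 and 69.3 TPM in control (-0.31, limma adjusted p = 0.0438). It was higher in the line labelled S133A-CREB (42.5 and 35.6 TPM), and the call was lost without any of 5 lines (adjusted p = 0.0557 to 0.110). Pfkl, the liver-type subunit, had 38.4, 53.0 and 58.2 TPM with TGFβ and 37.7, 52.5 and 61.5 TPM in control, with 2 lines up and 5 down (-0.01, 95% CI -0.13 to 0.10). Pfkl was 29.2% to 48.6% of the summed phosphofructokinase TPM with TGFβ and 23.4% to 40.8% in control.

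**Figure D3:**
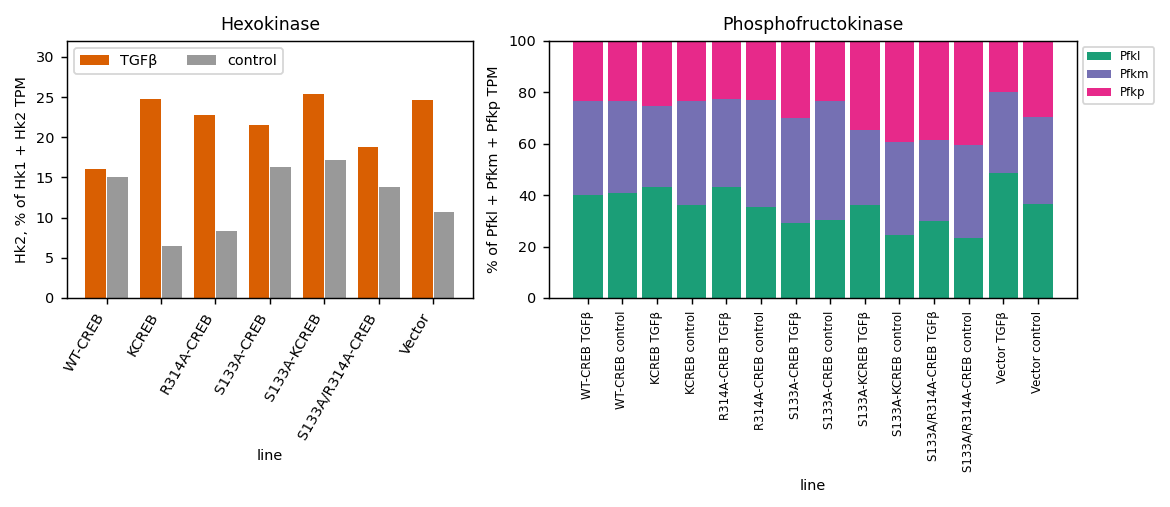
Left, Hk2 as a percent of the summed TPM of Hk1 and Hk2 (y axis) in the TGFβ and control library of each line; right, the 3 phosphofructokinase genes as percent of their summed TPM (y axis) in each library. The Hk2 share is higher with TGFβ in all 7 lines, and the Pfkl share is higher in 5 of them, all but those labelled WT-CREB and S133A-CREB.

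Aldoc (chr11:78213899-78218607, plus strand), the brain-type aldolase, showed the deepest fall of any member. It had 4.72, 11.6 and 48.4 TPM with TGFβ, against 12.0, 23.7 and 62.0 TPM in control. The line labelled KCREB fell furthest, to 13.2 TPM with TGFβ against 61.7 TPM in control, and the line labelled WT-CREB least, to 48.4 against 62.0 TPM. The mean change was -1.07 (95% CI -1.47 to -0.67, limma adjusted p = 0.00152). Eno2, the neuron-type enolase, had 11.2, 14.6 and 21.5 TPM with TGFβ and 14.9, 19.4 and 29.4 TPM in control and was lower in all 7 lines (-0.41, limma adjusted p = 0.00174), though it differed by 0.04 alone in the line labelled S133A-CREB. Both are minor transcripts beside their abundant partners. Aldoc was 0.560% to 5.58% of the summed TPM of Aldoa and Aldoc with TGFβ and 1.33% to 6.07% in control. Eno2 was 1.11% to 2.67% of the summed TPM of Eno1 and Eno2 with TGFβ and 1.36% to 3.89% in control. The enolase Eno3 (67.9 to 211 TPM with TGFβ, 83.9 to 270.5 TPM in control) and the copy Eno1b are not in that sum.

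Gpi1, which turns glucose 6-phosphate into fructose 6-phosphate, had 261, 285 and 547 TPM with TGFβ and 263, 324 and 611 TPM in control (-0.12, 95% CI -0.21 to -0.04, limma adjusted p = 0.0285). Its highest values under both treatments were those of the line labelled S133A-KCREB. Leaving out Vector or the lines labelled KCREB, S133A-KCREB or S133A/R314A-CREB ended the call (adjusted p = 0.0628 to 0.0747).

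The abundant enzymes of the lower pathway passed the test in neither direction. Gapdh, the dehydrogenase of the pathway, had 1690, 2135 and 2430 TPM with TGFβ and 1629, 2061 and 2701 TPM in control, with 3 lines up and 4 down (-0.01, 95% CI -0.13 to 0.10). Pkm, the pyruvate kinase, had 1808, 2200 and 2553 TPM with TGFβ and 2041, 2240 and 2830 TPM in control (-0.12, 95% CI -0.26 to 0.03). Aldoa averaged 982 ± 187 TPM with TGFβ and 1052 ± 181 TPM in control (SD, n = 7 each) and was lower in all 7 lines by 0.04 to 0.23 (limma adjusted p = 0.0710). It passed under median-of-ratios scaling (adjusted p = 0.0336) and when TPM was rescaled after dropping mitochondrially encoded genes (adjusted p = 0.0479). Eno1 averaged 972 ± 168 TPM with TGFβ and 941 ± 187 TPM in control, Tpi1 716 ± 118 and 737 ± 95.8 TPM, Pgk1 586 ± 67.0 and 583 ± 97.7 TPM, and Pgam1 341 ± 33.6 and 318 ± 36.8 TPM. Pgam1 was higher in all 7 lines, by 0.23 at most (limma adjusted p = 0.0785). The intervals of these 4 changes all lay between -0.16 and 0.20 on the log2 scale, so a change of a size like that of Hk2 lies outside them. Many of these enzymes have near-identical copies in the genome, among them Eno1b (137 to 229 TPM with TGFβ, 132.5 to 226 TPM in control), and how reads were shared among copies is not stated in the labels or file headers.

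The summed TPM of the 15 enzyme genes, Slc2a1 left out, describes the same balance. With TGFβ it was 0.956 times control in the line labelled WT-CREB, 1.00 in KCREB, 0.940 in R314A-CREB, 0.973 in S133A-CREB, 0.961 in S133A-KCREB, 0.943 in S133A/R314A-CREB and 0.951 in Vector. The enzymes together made up 0.701% to 0.952% of all TPM with TGFβ and 0.721% to 1.00% in control. The sum has no test, and it is governed by the most abundant genes, Pkm and Gapdh.

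Pyruvate and lactate handling had 2 members above the filter. Ldha, the lactate dehydrogenase subunit that favours lactate, had 376, 464 and 706 TPM with TGFβ and 311, 408 and 547 TPM in control, with a change of 0.19 (95% CI 0.04 to 0.34, limma adjusted p = 0.0418). It was lower in the line labelled WT-CREB (462 and 504 TPM), and the call was lost without any of 5 lines (adjusted p = 0.0503 to 0.108) and under 3 other scalings and FPKM (0.0526 to 0.0839). Pdk1, a kinase that switches off pyruvate dehydrogenase, had 0.0987, 1.03 and 4.43 TPM with TGFβ and 0.169, 2.71 and 4.15 TPM in control (-0.41, limma adjusted p = 0.0328), and its call was lost without any of 4 lines (0.0588 to 0.0843). Ldhb, the partner subunit of Ldha, was listed at 0 in all 14 libraries. Slc16a3, the lactate exporter MCT4, stayed under the filter at 0.421 to 1.02 TPM with TGFβ and 0.288 to 1.41 TPM in control.

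Of the 3 HIF-induced enzymes that modify collagen, 2 rose and 1 fell. Plod2 (chr9:92421828-92490481, plus strand), the lysyl hydroxylase that sets collagen cross-links, had 273, 1054 and 1254 TPM with TGFβ, against 210, 430 and 568 TPM in control. It was higher in all 7 lines (0.97, 95% CI 0.66 to 1.29, limma adjusted p = 0.000802). The rise was smallest in the lines labelled WT-CREB (273 with TGFβ and 210 TPM in control) and S133A-CREB (466 and 352 TPM) and largest in Vector (1194 and 428 TPM) and the line labelled S133A/R314A-CREB (1254 and 480 TPM).

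P4ha2 (chr11:53991750-54022494, plus strand), a catalytic subunit of collagen prolyl 4-hydroxylase, had 66.3, 101 and 114 TPM with TGFβ, against 39.4, 57.5 and 72.2 TPM in control. It was higher in all 7 lines (0.73, 95% CI 0.54 to 0.91, limma adjusted p = 0.000313), and the groups overlapped only through the TGFβ library of the line labelled KCREB. P4ha1, the other common catalytic subunit of the same enzyme, had 45.8, 53.1 and 63.0 TPM with TGFβ and 44.7, 71.6 and 97.1 TPM in control and was lower in 6 lines (-0.32, 95% CI -0.50 to -0.15, limma adjusted p = 0.00929). The subunits thus changed in opposite directions. In TPM, P4ha2 was above P4ha1 in all 7 TGFβ libraries, and in 4 of 7 control libraries, those labelled WT-CREB, R314A-CREB, S133A-KCREB and, by 72.2 against 71.6 TPM, S133A-CREB.

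Vegfa (chr17:46327919-46343303, minus strand), the vessel growth factor, had 46.5, 86.0 and 120 TPM with TGFβ, against 31.9, 58.1 and 68.8 TPM in control. It was higher in all 7 lines (0.64, 95% CI 0.48 to 0.80, limma adjusted p = 0.000289) with changes of 0.43 to 0.93, and the line labelled S133A-KCREB had the lowest level under both treatments. Egln1, the main prolyl hydroxylase that marks HIF alpha, had 56.8, 63.0 and 76.3 TPM with TGFβ and 47.8, 51.9 and 60.3 TPM in control and was higher in all 7 lines (0.30, limma adjusted p = 0.00127). Mxi1, a MAX partner that opposes MYC, had 42.0, 61.6 and 91.8 TPM with TGFβ and 29.8, 46.4 and 75.0 TPM in control, again higher in all 7 lines (0.39, limma adjusted p = 0.00118).

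Other HIF-induced genes did not follow. Bnip3, a mitophagy receptor, had 20.0, 28.3 and 50.1 TPM with TGFβ and 31.7, 36.8 and 58.8 TPM in control (-0.34, 95% CI -0.55 to -0.12, limma adjusted p = 0.0168), with the line labelled S133A-CREB at 32.5 and 31.7 TPM. Ndrg1, a stress-responsive gene, had 178, 236 and 307 TPM with TGFβ and 209, 308 and 433 TPM in control (-0.38, limma adjusted p = 0.0675). It was higher in the line labelled WT-CREB alone, and without that line it passed (-0.47, adjusted p = 0.0284). It also passed under quantile normalization (adjusted p = 0.0398).

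Ankrd37, an ankyrin repeat gene, had 1.58, 2.15 and 3.98 TPM with TGFβ and 0.663, 1.57 and 2.49 TPM in control (0.41, limma adjusted p = 0.0522). Its change ranged from -0.15 in the line labelled R314A-CREB, without which it passed (0.51, adjusted p = 0.0305), to 1.23 in Vector. The HIF-induced members Car9, Adm and Egln3 stayed under the filter. Car9, a carbonic anhydrase, was at 0 to 0.0964 TPM with TGFβ and 0 to 0.197 TPM in control, and Adm, the peptide adrenomedullin, at 0 to 0.281 and 0 to 0.354 TPM. Egln3, a second prolyl hydroxylase, averaged 0.992 TPM over the 14 libraries, just under the filter. It had 2.05 TPM with TGFβ and 6.10 TPM in control in the line labelled S133A-KCREB, 0.525 and 2.44 TPM in Vector, and no more than 0.170 and 1.15 TPM in the other lines.

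Hif1a (chr12:73948098-73994328, plus strand), the alpha subunit, had 81.2, 94.5 and 108 TPM with TGFβ, against 63.0, 78.4 and 105 TPM in control. It was higher in 6 lines and lower in the line labelled WT-CREB, with 97.2 and 105 TPM (0.25, 95% CI 0.10 to 0.40, limma adjusted p = 0.0131). HIF alpha is known to be set mainly by protein breakdown, which RNA levels do not show. Epas1, which encodes HIF-2 alpha, was listed at 0 in 6 TGFβ and 5 control libraries and at 0.0643 TPM or less in the others.

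**Figure D4:**
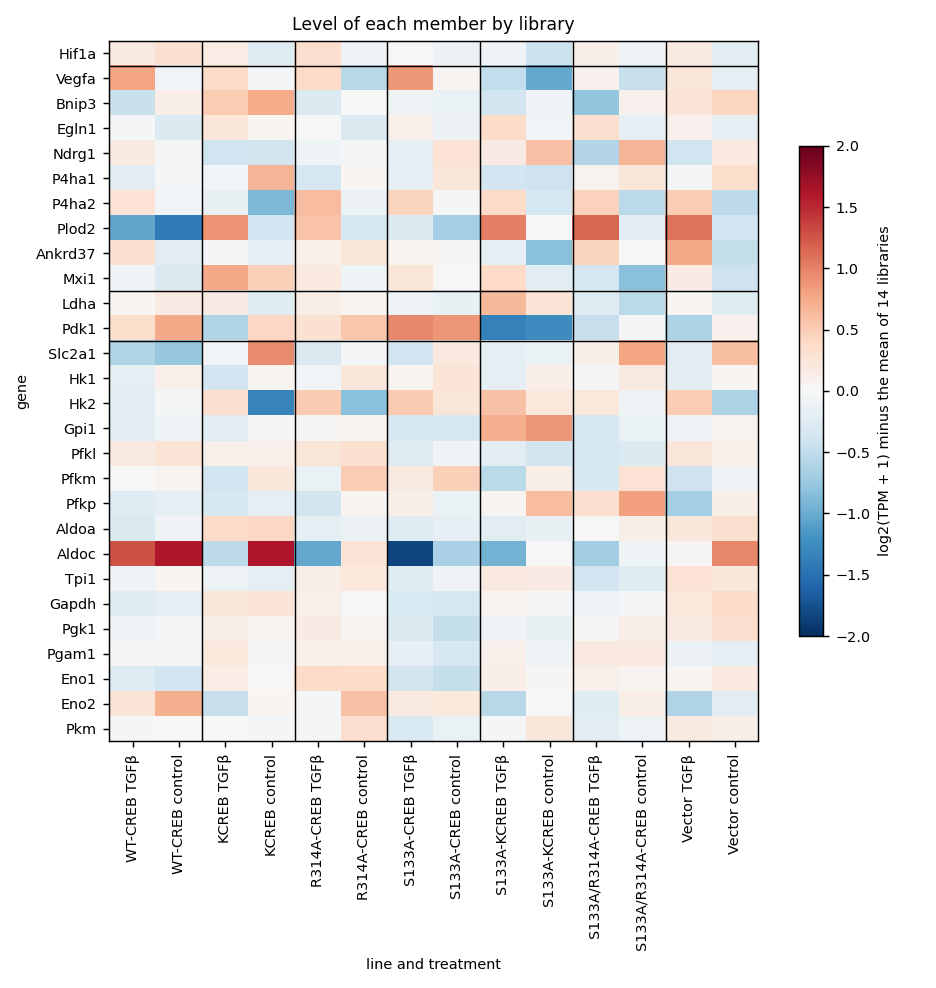
Level of the 28 members (rows) in the 14 libraries (columns, TGFβ left of control within each line), coloured by log2(TPM + 1) minus the mean of the gene over all libraries. Aldoc, Plod2, Pdk1 and Hk2 vary most, and the lines labelled WT-CREB (Plod2 low) and S133A-KCREB (Gpi1 high, Pdk1 low) stand out under both treatments.

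The promoters of the members were read for the core of the hypoxia response element, ACGTG or GCGTG, and for the cAMP response element TGACGTCA bound by CREB, on both strands. The windows, 250 bases before to 50 bases after each start, come from RefSeq on build GRCm38.p6, another build than the expression tables, and 31 of 34 members matched, with 46 windows. Ndrg1, Plod2 and Epas1 had none. The first window of P4ha2 and Hk2, which rose strongly, of Ldha, the member with the full cAMP response element, and of Slc2a1 and Aldoc, which fell, are shown 5′ to 3′ on the strand of the gene, with hypoxia cores and the full cAMP response element in capitals.
P4ha2 (chr11:54100674-54100973, plus strand): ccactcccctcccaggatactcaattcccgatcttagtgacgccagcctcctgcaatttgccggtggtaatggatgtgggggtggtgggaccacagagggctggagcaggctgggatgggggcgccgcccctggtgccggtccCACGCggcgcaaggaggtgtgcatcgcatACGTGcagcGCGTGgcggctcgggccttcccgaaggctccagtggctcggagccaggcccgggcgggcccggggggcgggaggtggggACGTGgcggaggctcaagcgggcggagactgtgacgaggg
Hk2 (chr6:82774405-82774704, minus strand): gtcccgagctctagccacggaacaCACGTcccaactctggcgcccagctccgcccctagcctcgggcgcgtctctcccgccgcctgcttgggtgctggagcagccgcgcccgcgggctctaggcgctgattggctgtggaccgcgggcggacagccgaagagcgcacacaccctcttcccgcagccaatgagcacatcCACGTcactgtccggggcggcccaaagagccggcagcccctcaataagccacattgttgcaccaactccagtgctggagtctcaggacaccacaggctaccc
Ldha (chr7:46845554-46845853, plus strand): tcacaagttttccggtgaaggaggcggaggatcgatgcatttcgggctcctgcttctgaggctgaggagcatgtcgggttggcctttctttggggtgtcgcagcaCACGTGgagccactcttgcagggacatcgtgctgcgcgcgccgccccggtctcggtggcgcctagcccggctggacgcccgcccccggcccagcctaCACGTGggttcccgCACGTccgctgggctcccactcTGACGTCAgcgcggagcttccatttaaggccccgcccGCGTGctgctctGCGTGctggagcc
Slc2a1 (chr4:119108495-119108794, plus strand): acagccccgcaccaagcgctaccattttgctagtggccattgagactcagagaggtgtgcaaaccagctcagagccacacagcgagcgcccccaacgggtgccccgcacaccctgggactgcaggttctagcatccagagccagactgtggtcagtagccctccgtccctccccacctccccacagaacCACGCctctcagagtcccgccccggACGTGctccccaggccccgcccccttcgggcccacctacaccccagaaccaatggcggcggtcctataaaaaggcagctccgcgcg
Aldoc (chr11:78322823-78323122, plus strand): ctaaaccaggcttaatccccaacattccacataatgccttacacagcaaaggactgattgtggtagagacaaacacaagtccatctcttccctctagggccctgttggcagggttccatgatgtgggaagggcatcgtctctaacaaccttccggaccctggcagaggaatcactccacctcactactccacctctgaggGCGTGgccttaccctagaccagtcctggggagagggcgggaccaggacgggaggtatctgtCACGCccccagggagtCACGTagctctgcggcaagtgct

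A hypoxia core stood in 78.3% of the 46 member windows and in 43.8% of all 32851 windows, and in 28 of the 31 members against 46.7% of all genes with a window. It was present in 7 of the 7 members with a window that rose, in 8 of the 10 that fell and in 8 of the 9 that were not called, so its presence did not part the directions. The Ldha window holds 7 matches, where each CACGTG counts on both strands, the P4ha2 window 4, the Aldoc window 3, and the Hk2 and Slc2a1 windows 2 each. The full cAMP response element was found in the Ldha window and in no other member window, against 1.79% of all windows. Its shorter core TGACG, which lies inside the full element and shares letters with a hypoxia core in the Hk2 window, stood in 7 of 31 members (22.6%), near the 23.0% of all genes with a window. Those 7 were 4 of the members that rose (Hk2, Ldha, Vegfa and P4ha2), none of the 10 that fell, 1 that was not called and 2 under the filter. These matches describe letters in a window and are no evidence of binding.

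The wider pathways were read from 3 further lists, which were also chosen with earlier results of these data known. Of 32 other genes of glucose metabolism 24 were tested, of which 4 rose (16.7%, against 24.1% of all genes tested) and 10 fell (41.7%, against 21.4%), with a median change of -0.14. Pdha1, a subunit of the pyruvate dehydrogenase that feeds mitochondria, had 161 to 195 TPM with TGFβ and 188.5 to 281 TPM in control (-0.38, limma adjusted p = 0.000491). Mpc1, a subunit of the mitochondrial pyruvate carrier, fell likewise (-0.31, limma adjusted p = 0.00126), and so did the muscle-type enolase Eno3 (-0.37, limma adjusted p = 0.000821). Pck2, the mitochondrial phosphoenolpyruvate carboxykinase, rose (0.44, limma adjusted p = 0.00120), with 108.5 to 215 TPM with TGFβ and 94.4 to 176 TPM in control. All 4 moved in one direction in all 7 lines. Of the 6 genes of the pentose phosphate pathway, the branch that leaves glycolysis at glucose 6-phosphate, 5 fell (83.3%, against 21.4% of all genes tested) and none rose (against 24.1%), with a median of -0.32. Tkt, the transketolase, had 183 to 466.5 TPM with TGFβ and 280 to 2129 TPM in control (-1.26, limma adjusted p = 0.000796). Rpia fell by 0.67, G6pdx, the entry enzyme, by 0.43 and Rpe by 0.14 on the log2 scale.

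Of 34 other genes of the HIF system 28 were tested, of which 8 rose (28.6%, against 24.1% of all genes tested) and 3 fell (10.7%, against 21.4%), with a median of 0.13. The share that rose is near the background. Bhlhe40, a transcription repressor, rose in all 7 lines to 164 to 454 TPM with TGFβ, against 67.0 to 248 TPM in control (0.90, limma adjusted p = 0.000308). The secreted Stc2 (1.07, limma adjusted p = 0.000938) and the mTORC1 inhibitor Ddit4 (1.05, limma adjusted p = 0.00105) also rose, and Zfp395 fell (-0.71, limma adjusted p = 0.000156). The HIF partner Arnt (-0.11, adjusted p = 0.0957) and Vhl (-0.08, adjusted p = 0.348), which guides HIF alpha to breakdown, did not pass in limma.

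**Figure D5:**
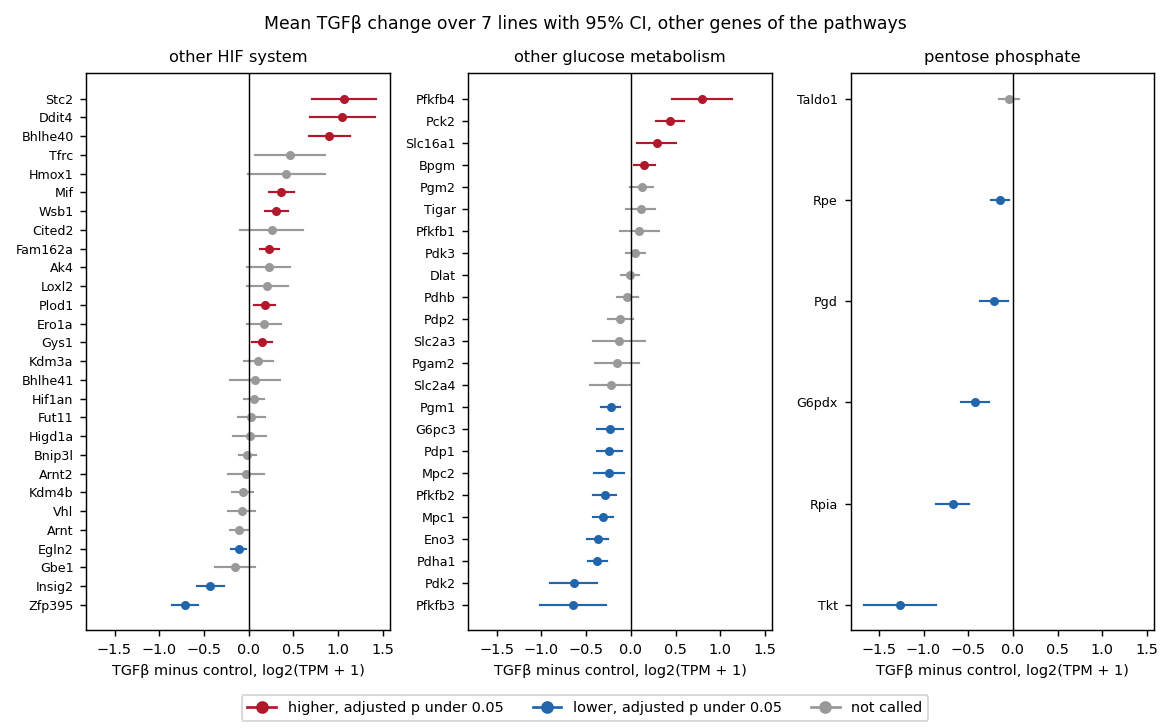
Mean change with TGFβ over the 7 lines on the log2(TPM + 1) scale (x axis) with its 95% confidence interval, for 28 other HIF system genes, 24 other genes of glucose metabolism and 6 pentose phosphate genes. Red marks genes that rose, blue genes that fell and grey those that did not pass, with 8 and 3 called in the HIF list, 4 and 10 in glucose metabolism and 0 and 5 in the pentose phosphate list.

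Single lines had 1 library per treatment and no test. A change of at least 1.5-fold on the log2(TPM + 1) scale was seen in 1 of 28 members in the line labelled WT-CREB (Vegfa, up), where 5.99% of all genes tested passed that fold. The line labelled KCREB had 8, 3 of them up (background 21.6%), R314A-CREB 7, 4 up (15.8%), and S133A-CREB 3, 1 up (10.3%). S133A-KCREB had 6, 4 up (14.2%), S133A/R314A-CREB 7, 2 up (15.3%), and Vector 9, 4 up (16.3%). Plod2 and P4ha2 passed in the same 5 lines, all but those labelled WT-CREB and S133A-CREB, and Aldoc passed in 6, all but the line labelled WT-CREB. Of the called members, the line labelled WT-CREB went against the mean direction in Slc2a1, Hk2, Ldha and Hif1a.

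Against Vector, values were set side by side for each treatment, and all 6 lines share the same 2 Vector libraries. More than 2-fold in both treatments was reached by 3 members in 4 cases. The share of all genes tested that reach it was not computed, so these cases have no background. Plod2 in the line labelled WT-CREB was 0.229 times Vector with TGFβ and 0.490 times in control. Aldoc in the line labelled S133A-CREB was 0.240 and 0.311 times Vector. Pdk1 was 5.45 and 2.12 times Vector in the line labelled S133A-CREB and 0.121 and 0.0861 times in the line labelled S133A-KCREB, at levels of 0.0987 to 4.43 TPM. Gpi1 in the line labelled S133A-KCREB stood at 1.78 and 1.77 times Vector, with 0.850 to 1.09 times in the TGFβ libraries and 0.763 to 0.995 times in the control libraries of the other lines.

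Lines that differ in S133 and in the bZIP domain were compared over the 6 CREB lines, with the mean of the 2 libraries of a line as 1 value. No member was called for S133A, for K or for R314A, and none for the dependence of the TGFβ change on S133A, K or R314A. The background was 0.0% of genes called in each of these 6 fits with limma. Of the 12927 genes tested, 753, 1310, 821, 455, 1392 and 829 had an unadjusted p under 0.05. At that level stood 4, 4, 2, 1, 5 and 4 of the 28 members.

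For S133A the smallest p-values were those of Pfkl, Pfkp, Plod2 and Hk2 (limma adjusted p = 0.809 for each). Pfkl had 38.4 to 42.3 TPM with TGFβ in the 3 lines labelled with S133A and 53.0 to 58.0 TPM in the 3 without, and 37.7 to 46.6 TPM and 53.1 to 61.5 TPM in control. The groups did not overlap under either treatment, and the difference was -0.46 (95% CI -0.81 to -0.12). Pfkp differed the other way (0.52), as did Hk2 (0.54) and Plod2 (0.45). Pfkl is described because its p-value was the smallest of the members. The share of all genes tested whose groups separate in this way was not computed, so the separation of Pfkl has no background. The treatments are also not independent repeats, because libraries of the same line varied together.

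For the forms altered in the bZIP domain (K in DNA binding, R314A in CRTC binding), Plod2 had the smallest p-value of the members in both fits. It had 1054 and 1128 TPM with TGFβ in the lines labelled with K, 838 and 1254 TPM in those labelled with R314A, and 273 and 466 TPM in those labelled WT-CREB and S133A-CREB. In control it had 430 and 568 TPM, 452 and 480 TPM, and 210 and 352 TPM. Vector, which was not in these fits, had 1194 TPM with TGFβ and 428 TPM in control, so it lay within or near the range of the K and R314A lines, and the lines labelled WT-CREB and S133A-CREB were the low ones. The K and R314A lines were above those 2 lines by 1.24 for K (95% CI 0.75 to 1.72, limma adjusted p = 0.275) and 1.15 for R314A (0.67 to 1.63, limma adjusted p = 0.577). Pdk1 (-1.44, adjusted p = 0.416), Eno2 (-0.59) and Eno1 (0.45) followed for K in limma, and Eno1 (0.59) for R314A.

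The TGFβ change of Plod2 was likewise larger by 0.75 in lines labelled with K (limma adjusted p = 0.397) and by 0.74 in those labelled with R314A (adjusted p = 0.698), short of the threshold. Pfkm differed by -0.47 and -0.45 in the same fits, and P4ha2 by 0.32 and 0.46. Ldha (0.42) and Hif1a (0.38) followed for K, and Pfkp (-0.53) for R314A. Both forms were set against the lines labelled WT-CREB and S133A-CREB. Over all genes tested, 5.99% and 10.3% passed 1.5-fold in those lines, against 14.2% to 21.6% in the other lines. Vector, outside these fits, changed by 1.48 in Plod2, 1.04 in P4ha2, -0.35 in Pfkm, 0.28 in Ldha, 0.40 in Hif1a and -0.80 in Pfkp. For S133A, the TGFβ change of Ndrg1 differed by -0.77 (95% CI -1.21 to -0.34, limma adjusted p = 0.999). Its changes were -1.27, -0.48 and -0.42 in the lines labelled with S133A and -0.04, -0.04 and 0.22 in the CREB lines without it. In Vector, which was not in the fit, the change was -0.59.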

How the data were processed

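RNA sequencing of 14 libraries was read from the authors' gene abundance tables, which hold TPM, FPKM and coverage per gene as deposited by the authors, per the file headers, in StringTie's column layout. The submitters' processing notes name STAR 2.7.6a, StringTie 2.0.4, edgeR and GRCm39, with no roles. Lines of a table that share a gene identifier were summed. No read counts were used, so depth is known only from coverage per FPKM. Changes were fitted with limma 3.58.1 in R 4.3.3 on log2(TPM + 1), with an intensity trend and Benjamini-Hochberg adjustment over 12927 genes, threshold 0.05, two-sided. This scale understates changes of low genes. The line, named in each title, pairs the 2 treatments. Deviations of a line's 2 libraries from the treatment means correlated at 0.614 to 0.845, against at most 0.275 between lines. The 6 CREB lines were fitted on line means and on differences with S133 and bZIP terms. Members and lists were chosen with earlier results of these data known. Every member was accounted for. A further gene of the HIF system, beyond the 34 counted, is not reported here. From each wider list up to 4 genes with the smallest p were named, and other named genes were chosen after their values were seen. The K and R314A interactions and isoform shares were added after the values were seen. Alternatives were pseudocounts 0.1 and 5, other filters (none, 5 TPM), scalings and units, no trend, no block, each line left out, and a Wilcoxon test. The fits were tested on simulated data.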

Additional observations from a re-analysis of the deposited data

Results flagged for a closer look

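Samples far from the others of their group were sought in 84 groups of 7 values, of which chance gives about 1 in 20, and 6 were found. Gpi1 stood apart in both libraries of the line labelled S133A-KCREB, at 9.0984 on the log2(TPM + 1) scale with TGFβ, where the other lines had 8.04 to 8.39, and at 9.2569 in control, where they had 8.05 to 8.44. Pdk1 in the control library of the same line was at 0.225, where the other control libraries had 1.46 to 2.36. P4ha2 in the TGFβ library of the line labelled KCREB was at 6.0733, where the other TGFβ libraries had 6.52 to 6.85. The TGFβ change of Eno1 was -0.1555 in Vector, where the other lines had 0.02 to 0.14. The TGFβ change of Eno2 was -0.0381 in the line labelled S133A-CREB, where the other lines had -0.62 to -0.38.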

How the results depend on the processing

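Of the 18 members called with TGFβ, 4 (Hk1, Pfkm, Egln1 and P4ha2) were called in every alternative run. Without the replicate block, that is without pairing by line, 4 members were called (2 higher, 2 lower), beside 1164 genes in all (645 higher, 519 lower). The exact Wilcoxon test called 11 members, 5 of them lower. It lost 9 of the 18 and added 2 that had no call in limma. With 7 lines its smallest p goes only to genes that moved in one direction in all 7. That held for 11 of 28 members and for 34.4% of all genes tested. The run with no filter left 6 lower. Leaving out 1 line left 12 to 18 members called, 6 to 8 higher and 6 to 10 lower, the 6 lower without Vector. The share of all genes called in each of these runs is not given here, so these counts have no background. Members with no call turned sign: Pfkl was 0.0118 without the line labelled S133A-CREB (range over lines left out -0.0442 to 0.0118), Gapdh 0.0313 under quantile normalization and 0.0102 without Vector (range -0.0342 to 0.0102), and Pgk1 -0.0036 under median-of-ratios scaling, -0.0029 under quantile normalization and -0.0094 without the line labelled S133A-CREB (range -0.0094 to 0.0459). Over all genes, 4 were called for S133A without the bZIP term. Leaving out 1 line called 0 to 19 genes for K, 0 to 21 for R314A, 0 to 15 for K by TGFβ and 0 to 1 for R314A by TGFβ, with 0 members in each. In the line labelled WT-CREB 3 members passed 1.5-fold with a pseudocount of 0.1, and 2 without mitochondrially encoded genes or with FPKM. The log2 change of the enzyme sum was -0.0393 (Vector), -0.1483 (R314A-CREB) and -0.0909 (S133A-KCREB) without Gapdh, -0.0994 (WT-CREB) without mitochondrially encoded genes, -0.1485 (WT-CREB) and 0.0027 (S133A-CREB) with FPKM, and -0.0488 (KCREB) and -0.108 (S133A-KCREB) under median-of-ratios scaling. The causes of these differences were not tested. Without counts, no counting error could be given for low members such as Pdk1 and Ankrd37.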
